A study of Mus musculus with 2 samples.

Results

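Macrophage and myeloid marker genes were followed in gastrocnemius, a calf muscle used for locomotion, 14 days after denervation. The set holds 37 genes that are widely used to recognise macrophages and other myeloid cells, chosen by name with earlier results of these data known. A probe counted as a member when the array's gene name, or the current symbol of its accession, was on the list, with Emr1 standing for Adgre1 (F4/80) and Sfpi1 for Spi1 (PU.1). All 37 genes were found, on 62 of the 41174 probes, among 21973 gene symbols on the array. 17 of them had 1 probe and 20 had several.

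Both groups were wild-type male C57BL/6 mice, 7 weeks old when the experiment began and 9 weeks old by the sample labels. In the denervated group the nerve to the muscle had been out of action for 14 days. The control group is called a sham control in one label and only a control in another, so it is unclear whether these mice were operated on. RNA of 6 mice per group was pooled and each pool was put on 1 array, so the data hold 2 arrays and no replicate. Both arrays lie on one slide. A single array for each group allows no test, the spread between mice is unknown, and each difference describes these 2 pools. Muscle fibre genes identified the tissue: all 10 listed ones were measured, with no difference of 2-fold or more. Their median log2 difference was -0.30, or 0.10 with the spike-in scaling described below. For all measured genes these medians were -0.11 and 0.29.

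Macrophages are phagocytes that live in muscle between the fibres and are joined by blood monocytes after injury. They bind antibody-coated particles through Fc receptors, sense microbial and damaged-cell products through Toll-like receptors, take up debris through scavenger receptors and lectins, and degrade it in lysosomes. Several genes on the list are shared with other blood cells, and some, such as Lgals3, Tlr4 and Cyba, are also expressed outside the blood lineage.

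Signals below are the scanner software's background-subtracted spot intensities, in arbitrary units, as they stand on each array. A log2 difference is the denervated pool minus the control pool after each array was scaled to its 75th percentile, which lowers every raw log2 ratio by 0.43. The value after ± combines the spot errors that the software gives for the pair of arrays. It covers technical error alone and has a median of 0.20. For bright probes it rests almost wholly on the software's preset multiplicative error of 10%, so it is mostly a set value and not a measured spread. Where a member probe was printed at 10 spots, the SD over its spots was 0.07 to 0.10. Signals of different probes are not comparable with each other, since each probe binds with its own strength. In whole muscle, more cells of a type and more RNA per cell cannot be told apart.

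Nearly all of these genes had a higher signal in the denervated pool. Of the 37 members, 33 were measured, meaning well above background and not saturated on both arrays. Of these 33, 30 passed 2-fold towards the denervated pool, none passed 2-fold towards the control pool, and 32 lay above 0. Across the 15652 genes measured, the same calls took in 6.92%, 8.58% and 42.8%. The members' median difference was 1.56 and that of all measured genes -0.11. Among the 13969 genes whose control signal lay in the members' own range, 7.05% passed 2-fold towards the denervated pool and 8.15% towards the control pool. Scaling on the arrays' spike-in control probes, in place of the 75th percentile, moves every difference up by 0.40. Under it 31 members passed 2-fold, Cd14 in addition, against 14.4% of all genes, and 32 lay above 0, against 67.8%.

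The remaining 4 members were too dim for a difference. Msr1, Clec4d and Sfpi1 were above background in the denervated pool only, and Arg1 was below background on both arrays. At the level of single probes, 49 of the 62 were measured, 9 were above background on the denervated array only and 4 on neither. Of the 49, 41 passed 2-fold towards the denervated pool and none towards the control pool, against 6.43% and 8.22% of the 27251 measured probes.

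**Figure D1:**
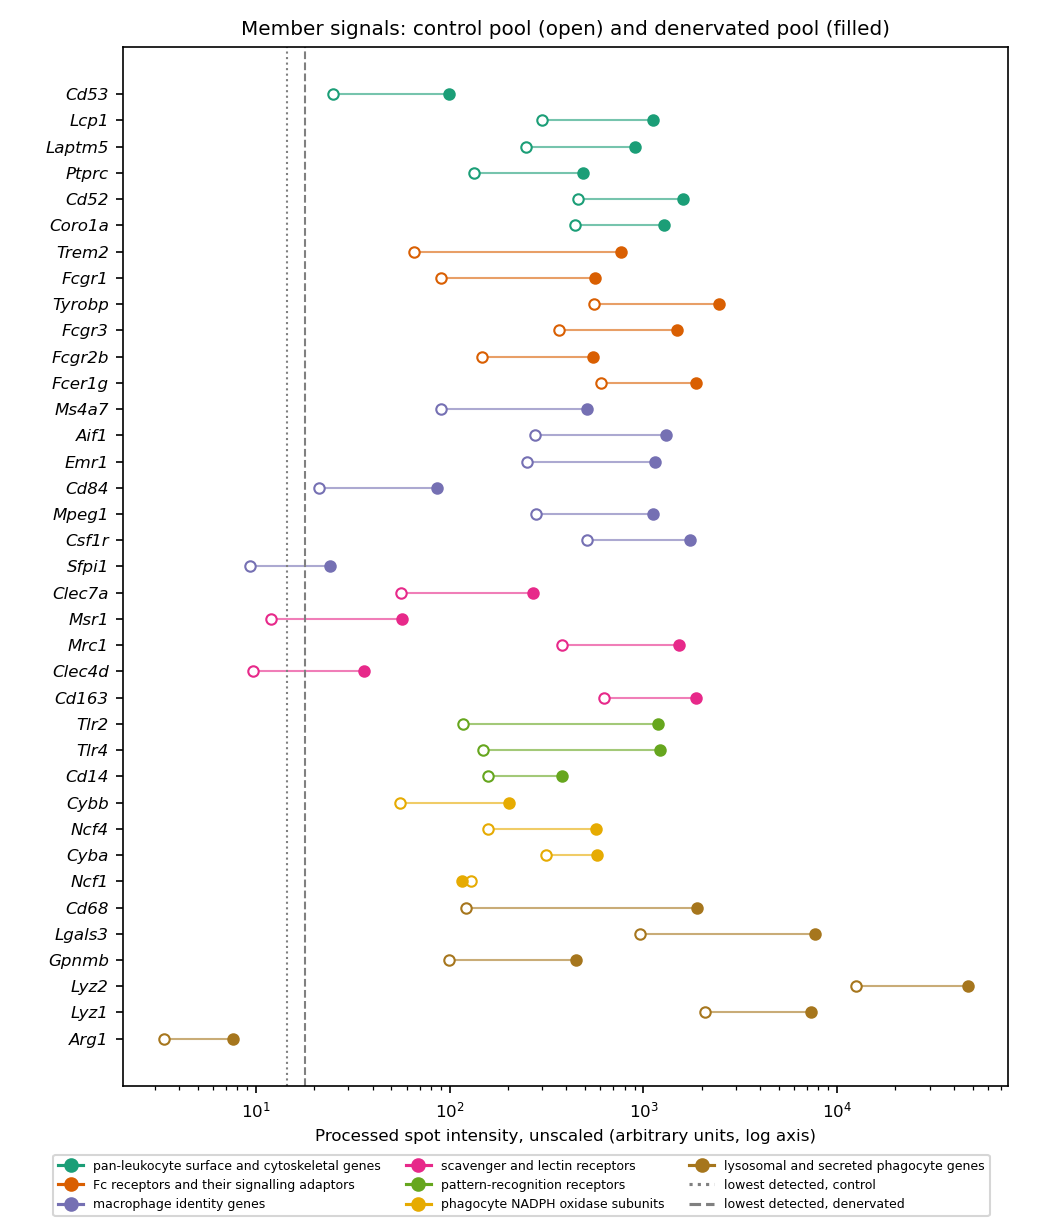
Unscaled processed intensity (log axis) of the 37 marker genes in the control pool (open) and denervated pool (filled), coloured by role, with the lowest detected signal of each array as vertical lines. 1 probe is shown per gene, and each point is 1 array. Ncf1 is the only gene whose denervated point lies to the left of its control point, and Arg1 lies below both lines.

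The size of the difference was similar for many members. 15 of the 33 lay between 1.3 and 1.7, and the quartiles of the members were 1.39 and 1.81. That range lies around the members' own median and held 2.06% of all measured genes. Among genes past 2-fold towards the denervated pool, it held 322 of 1083, beside 15 of the 30 members past 2-fold. 7 members exceeded 2 on the log2 scale, which 1.58% of all measured genes did. In order these were Cd68, Trem2, Tlr2, Tlr4, Lgals3, Fcgr1 and Ms4a7. At the other end, Cd14 and Cyba lay between 0 and 1, and Ncf1 lay below 0 by its brighter probe. Just inside 2-fold was Coro1a at 1.08, and just outside it Cd14 at 0.84. Neighbours in the middle of this order differed by less than the technical error.

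**Figure D2:**
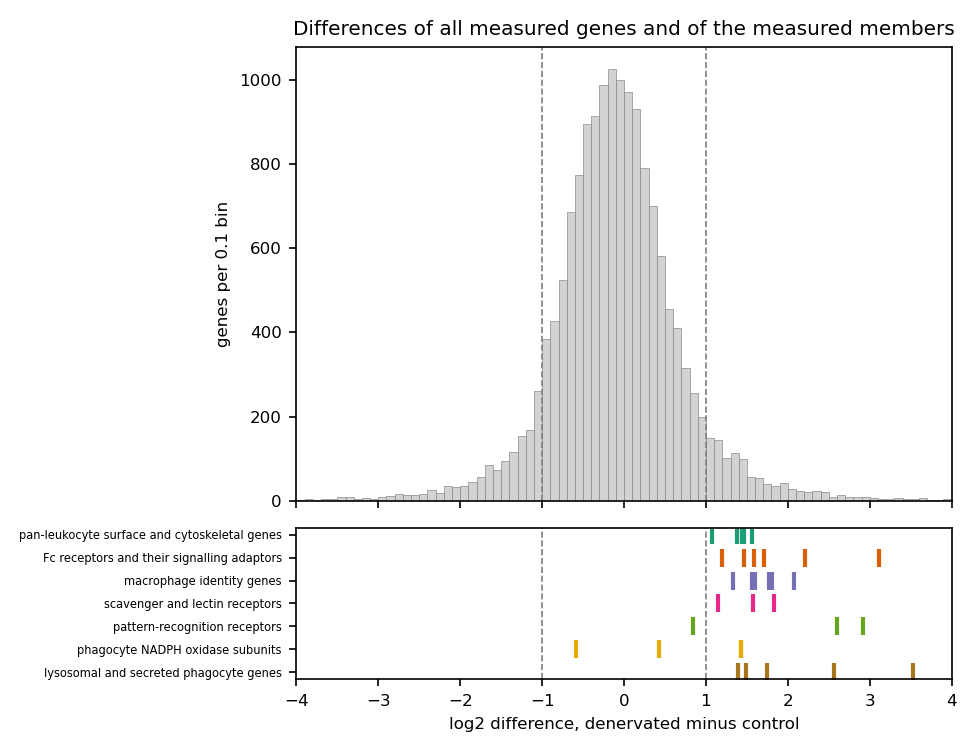
Histogram of the log2 differences of all measured genes (upper panel, genes per 0.1 bin, 54 genes beyond 4 in either direction not drawn) and the measured marker genes as ticks by role (lower panel). Dashed lines mark 2-fold. 30 of the 33 ticks lie to the right of the upper 2-fold line.

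The pan-leukocyte genes gave the narrowest range. Ptprc encodes CD45, the surface phosphatase found on all nucleated blood cells. Its main probe was printed at 10 spots, which read 123 to 149.8 (median 134) on the control array and 469.6 to 525 (median 489) on the denervated array. The difference was 1.44 with an SD of 0.07 over the 10 spots. That SD describes spots of one array pair and not mice. A further Ptprc probe, 50196 bases away in the genome (chromosome 1, mm8), gave 0.74 ± 0.28, and 2 more were above background in the denervated pool only.

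The tetraspanin gene Cd53 read 24.9 in control muscle and 99.5 in denervated muscle, a difference of 1.57 ± 0.29. With normexp, a background model with an added offset, Cd53 was at 0.39 and under 2-fold, while Ptprc was at 1.02. Laptm5, which encodes a lysosomal membrane protein of blood cells, read 247 and 903 (1.44 ± 0.21), and its second probe gave the same value to 2 decimals. For Lcp1, the actin-bundling protein L-plastin, the signals were 301 and 1119 (1.46 ± 0.20), with 1.32 by the second probe. Laptm5 and Lcp1 thus lay within the technical error of Ptprc. Cd52, a small surface glycoprotein, read 458 and 1608 (1.38 ± 0.20). Coro1a, a coronin that binds the actin cortex of leukocytes, read 446 and 1272 (1.08 ± 0.20), and its other probe lay under 2-fold at 0.93. All 6 pan-leukocyte members passed 2-fold by their main probe, with a median of 1.44.

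The Fc receptors and their signalling adaptors were all at least 2-fold higher, 6 of 6, with a median of 1.65. Trem2, a lipid-sensing receptor of phagocytes, stood out within this group. Its main probe (NM_031254, chromosome 17 at 47817764 to 47817823, mm8) read 65.8 in control muscle and 769 in denervated muscle, a difference of 3.12 ± 0.22 or 8.67-fold. The second Trem2 probe, 302 bases upstream, gave 1.89 ± 0.26, so both passed 2-fold and they disagreed by more than the technical error. Tyrobp encodes DAP12, the adaptor through which TREM2 signals. It read 555 and 2456 (1.71 ± 0.20), and its probe (chromosome 7 at 30124392 to 30126119, mm8) covers 1728 bases of genome against 60 for most probes, as an alignment across an intron does.

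Fcgr1 encodes the high-affinity IgG receptor. Its brighter probe read 89.9 and 562 (2.21 ± 0.21), while the dimmer read 24.8 and 57.1 and gave 0.77 ± 0.29. For Fcgr1 the call of 2-fold therefore rests on 1 of the 2 probes. Fcgr3, an activating IgG receptor, read 365 and 1483 (1.59 ± 0.20), with 1.67 by its second probe. Fcgr2b is the inhibitory member of the family. Over the 10 spots of its main probe it read 129.9 to 170.1 (median 149) in the control pool and 510.4 to 597 (median 554) in the denervated pool, a difference of 1.47 with a spot SD of 0.10. All 3 of its probes lay between 1.42 and 1.55, so the inhibitory receptor and the activating Fcgr3 differed by no more than the technical error. The Fc gamma receptor genes resemble each other in sequence, and cross-binding between their probes was not tested. Fcer1g, the shared signalling chain of activating Fc receptors, read 603 and 1871 (1.20 ± 0.20), with 1.50 by the other probe.

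Genes of macrophage identity were higher in all 6 measured cases, with a median of 1.69. Csf1r, the receptor for the growth factor on which most macrophages depend, read 510.3 and 1729.5 (1.33 ± 0.20) by its brightest probe. Of its other probes one gave 1.23 and one, 20962 bases from the first, gave 0.64 ± 0.33. Emr1, the F4/80 antigen, read 249 and 1150.5 (1.78 ± 0.20), while its other probe was below background on both arrays. Aif1, the actin-binding protein IBA1, read 277 and 1305 (1.81 ± 0.21), with 1.86 by the second probe. Thus F4/80 and IBA1, both commonly stained to find macrophages, differed from each other by less than the technical error.

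Ms4a7, a membrane protein gene of macrophages, read 90.3 and 514 (2.08 ± 0.21), and both of its probes gave that value. The spans of these probes overlap in the genome, so they are not independent. Mpeg1, which encodes the pore-forming protein perforin-2, read 279.99 and 1116.5 (1.56 ± 0.20). A dimmer Mpeg1 probe was above background in the denervated pool only, at least 9.08-fold higher there, a larger difference than the brighter probe gave. Cd84, a homophilic receptor of the SLAM family, was dim at 21.0 and 85.9 (1.60 ± 0.30), and with normexp it lay under 2-fold at 0.35. Sfpi1 encodes PU.1, the transcription factor required for myeloid development. Its only probe read 9.26 in the control pool, below background, and 24.0 in the denervated pool, which gives a difference of at least 1.23-fold and no 2-fold call.

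Of 5 scavenger receptors and lectins, 3 were measured and passed 2-fold (median 1.57), and 2 were too dim in the control pool. Mrc1, the mannose receptor CD206, read 380.5 and 1523 (1.57 ± 0.20). Cd163, the receptor for haptoglobin-bound haemoglobin that marks resident macrophages, read 623 and 1858 (1.14 ± 0.20), and was among the 3 lowest of the 30 genes past 2-fold. Clec7a, the beta-glucan receptor Dectin-1, read 55.9 and 268 (1.83 ± 0.22, or 1.07 with normexp). Msr1, the class A scavenger receptor, had 3 probes, each below background in the control pool. They read 56.7, 39.0 and 29.2 in the denervated pool, which was at least 2.89-fold, 1.99-fold and 1.49-fold higher there. Clec4d, another C-type lectin, read 9.66 and 35.9 and was at least 1.83-fold higher. Among the 6319 gene symbols not measured on both arrays, 2.86% had a bound of 2-fold or more towards the denervated pool and 5.35% towards the control pool.

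The pattern-recognition receptors included both Toll-like receptors of the list. Tlr2, which senses bacterial lipoproteins, was printed at 10 spots, of which 9 were unmarked on both arrays. They read 104 to 125 (median 116) in the control pool and 1129 to 1244 (median 1191) in the denervated pool, a difference of 2.91 with a spot SD of 0.08. Tlr4, the lipopolysaccharide receptor, read 134 to 158 (median 147) over 10 spots in the control pool and 1154 to 1323 (median 1205) in the denervated pool. Its difference was 2.60 with a spot SD of 0.07. A second probe annotated to Tlr4 was above background in the denervated pool only, at least 2.92-fold higher. It carries a cDNA clone accession, AK014533, and maps to 66415883 to 66415942 on chromosome 4 (mm8), away from the main probe at 66329051 to 66329109. Cd14, the co-receptor that hands lipopolysaccharide to TLR4, read 158 and 382, a difference of 0.84 ± 0.21 that lay under 2-fold. It passed 2-fold with spike-in scaling, at 1.24, and was at 0.55 with normexp. So the co-receptor differed less than Tlr4 by more than the technical error of either.

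The phagocyte NADPH oxidase, the enzyme that makes superoxide in the phagosome, gave 2 of 4 members past 2-fold and a median of 0.93, or 1 of 4 and 0.50 with normexp. Cybb, the catalytic gp91phox chain, read 55.6 and 202 (1.43 ± 0.22), and with normexp it lay under 2-fold at 0.65. Its second probe was below background on both arrays. Ncf4, the cytosolic p40phox subunit, read 158 and 571 (1.42 ± 0.21). Cyba encodes p22phox, the membrane partner of gp91phox, which also serves oxidases of other cell types. It read 315 and 574 (0.43 ± 0.20, or 0.83 with spike-in scaling).

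Ncf1, the p47phox organiser subunit, was the one member without a settled direction. Its brighter probe (chromosome 5 at 134505486 to 134505545, mm8) read 129 in control muscle and 116 in denervated muscle, a difference of -0.58 ± 0.21. Its other probe, 670 bases away, read 36.7 and 67.3, a difference of 0.44 ± 0.26. The mean of both probes was -0.07. The brighter probe gave -0.18 with spike-in scaling.

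Genes of the lysosome and of secretion held the largest member difference, and all 5 measured of 6 passed 2-fold, with a median of 1.75. Cd68 encodes macrosialin, a heavily glycosylated protein of macrophage lysosomes. Its only probe (NM_009853, chromosome 11 at 69481007 to 69481066, mm8) read 121 in control muscle and 1890.2 in denervated muscle, a difference of 3.53 ± 0.21 or 11.5-fold. Lgals3, the galactoside-binding protein galectin-3, read 961 and 7657 (2.56 ± 0.20), or 5.91-fold. Its probe (chromosome 14 at 46306600 to 46307416, mm8) spans 817 bases of genome. Gpnmb, a membrane glycoprotein of lysosome-rich phagocytes, read 99.6 and 451 (1.75 ± 0.21), and its other probe was below background on both arrays.

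Lyz2, lysozyme M, read 12517 and 47253 (1.48 ± 0.20), with 1.65 by its other probe. Lyz1, its close relative, read 2077 and 7339 (1.39 ± 0.20). The genes lie side by side on chromosome 10 and are near-identical in sequence, so signal from one cannot be told apart from the other with certainty. Arg1, arginase-1, read 3.33 and 7.61, below background on both arrays, so no difference can be given for this marker of alternative activation.

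**Figure D3:**
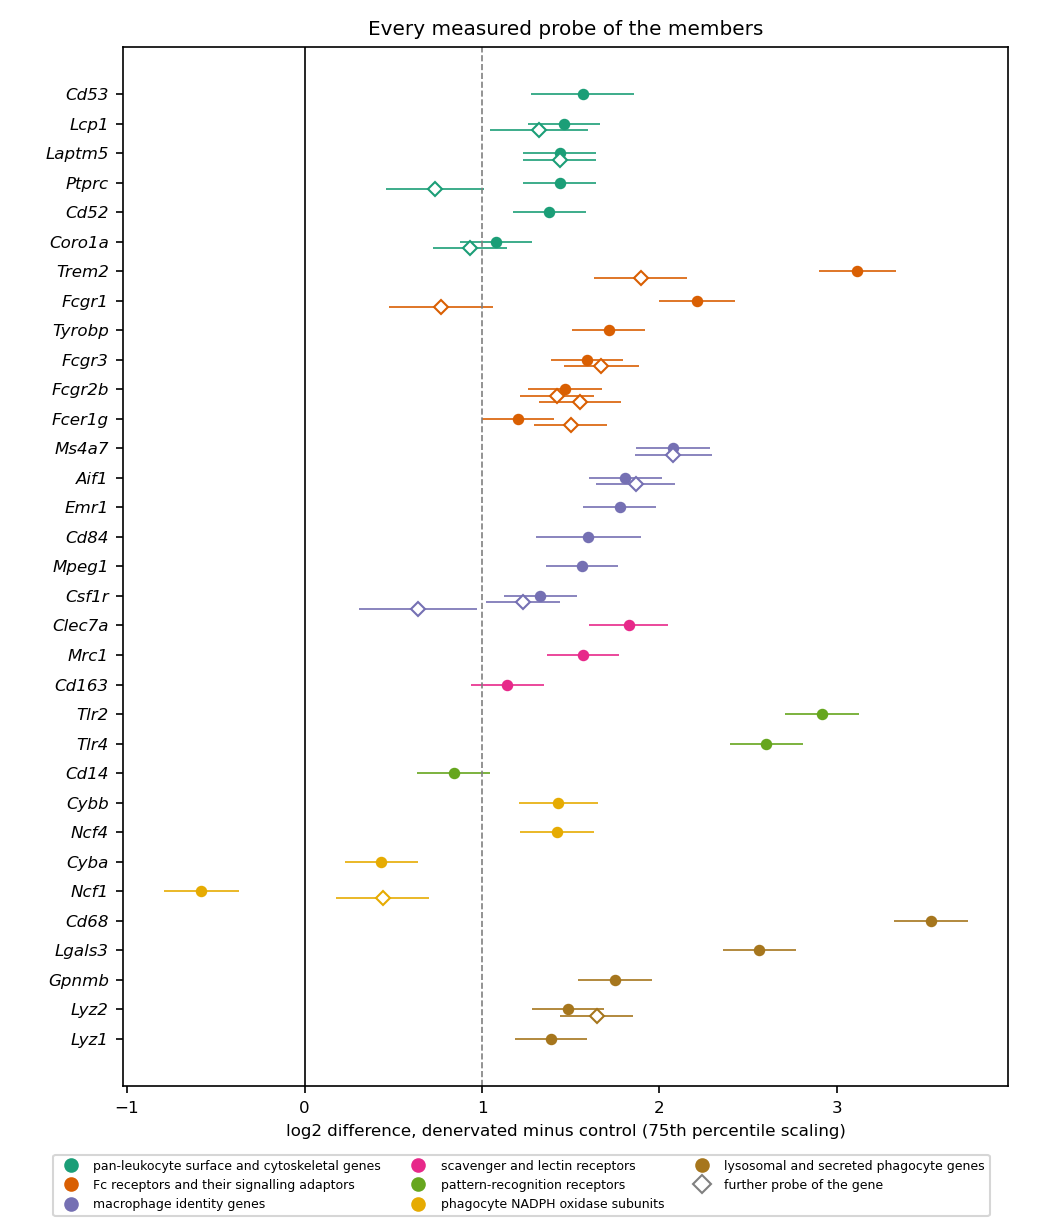
Log2 difference of every measured probe of the marker genes, denervated minus control. Filled circles are the brightest probe of each gene, open diamonds further probes, and bars the technical error of 1 array pair. The dashed line marks 2-fold, and the probes of Trem2, Fcgr1 and Ncf1 lie furthest apart within a gene.

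Where a gene had more than 1 measured probe, the probes mostly gave like values. This was so for 14 members. The probes differed by a median of 0.15 on the log2 scale, and by less than 0.2 in 8 of the 14. In 13 all probes lay above 0, and in 9 all passed 2-fold. Those with a probe under 2-fold were Ptprc, Coro1a, Fcgr1, Csf1r and Ncf1. The gaps of more than 1 belonged to Fcgr1 (1.44), Trem2 (1.22) and Ncf1 (1.02). Fcgr1 spans 1566 bases between its probes and Trem2 302, so these pairs lie close together in the genome. The cause of the gaps was not tested.

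**Figure D4:**
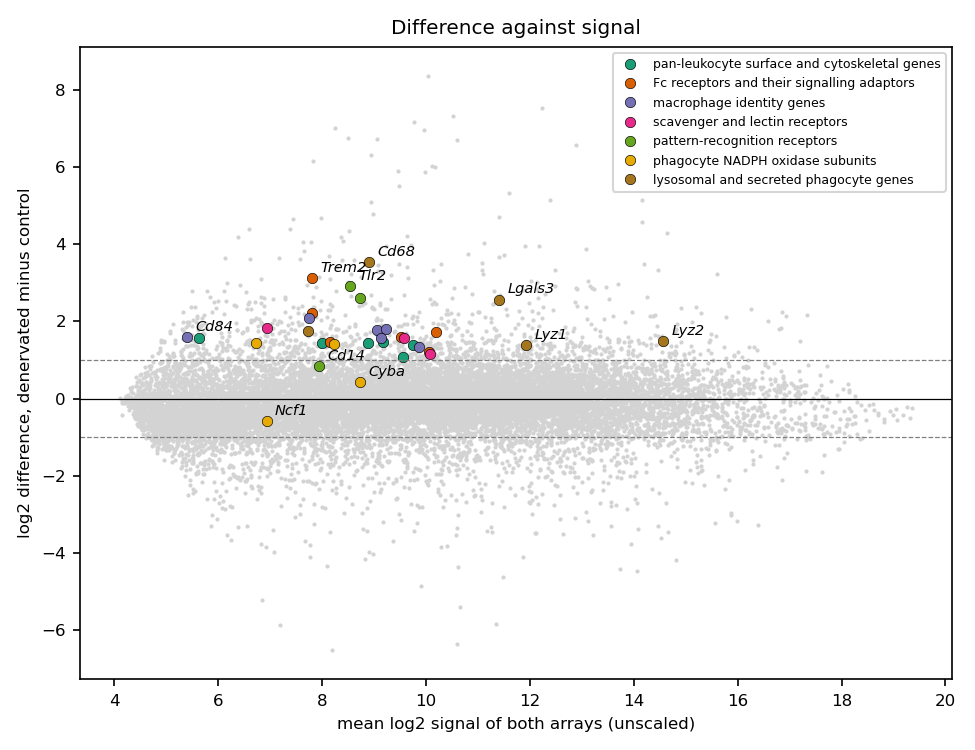
Log2 difference against the mean log2 signal of both arrays for all measured genes (grey) and the measured marker genes (coloured by role). Solid and dashed lines mark 0 and 2-fold. The marker genes range from the dim Cd84 to the bright Lyz2 and lie mostly between the line of 2-fold and a difference of 4.

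Promoter sequence was examined because these genes differed in the same direction and PU.1 is a regulator shared by many myeloid genes. RefSeq windows of 250 bases before to 50 after a transcription start (assembly GRCm38.p6) were matched by symbol for 27 of the 37 members, with 33 windows in all. The PU box, GAGGAA on either strand, was found in 14 of the 27 members (51.9%), and in 31.3% of the 27025 genes with a window. By window the figures were 48.5% and 28.3% of 32851. The AP-1 element TGANTCA was found in 6 members (22.2%, against 8.97% of all genes). A motif of interferon-response elements, GAAA followed after any pair of bases by GAAA, was found in 4 (14.8%, against 3.99%), and the E-box CACGTG in none (against 8.09%). All motifs were searched on both strands, and matches of different motifs overlapped in 1 case. These are counts of letters in a fixed window and say nothing of binding.

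5 of the windows with a PU box, chosen after the matches were seen, are shown to place the motif in genes of different roles, as the 150 bases before the start. The capitals mark GAGGAA or its reverse complement TTCCTC. Trem2 (chr17:48346251-48346400, + strand) has it at -40 from the start. Fcgr1 (chr3:96293970-96294119, - strand) has it at -55 and Clec7a (chr6:129472780-129472929, - strand) at -96. Cd53 (chr3:106790150-106790299, - strand) has it at -39 and Laptm5 (chr4:130913166-130913315, + strand) at -38. All 5 genes were at least 2-fold brighter in the denervated pool by their brightest probe. So were 30 of the 33 measured members, so this does not set the 5 apart. Cd53 lay under 2-fold with normexp (0.39), and Fcgr1 did by its other probe (0.77). A link between the motif and the differences was not tested.
Trem2: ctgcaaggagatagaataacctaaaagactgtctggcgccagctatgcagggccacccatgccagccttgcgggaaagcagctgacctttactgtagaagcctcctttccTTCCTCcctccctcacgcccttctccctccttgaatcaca
Fcgr1: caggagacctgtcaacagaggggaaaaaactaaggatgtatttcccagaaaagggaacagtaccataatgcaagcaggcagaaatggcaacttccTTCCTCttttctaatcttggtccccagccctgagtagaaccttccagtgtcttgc
Clec7a: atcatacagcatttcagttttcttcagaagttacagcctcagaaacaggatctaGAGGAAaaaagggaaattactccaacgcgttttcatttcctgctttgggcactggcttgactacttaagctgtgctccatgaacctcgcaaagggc
Cd53: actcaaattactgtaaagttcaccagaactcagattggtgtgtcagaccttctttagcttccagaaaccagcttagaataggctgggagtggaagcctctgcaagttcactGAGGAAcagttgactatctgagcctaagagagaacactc
Laptm5: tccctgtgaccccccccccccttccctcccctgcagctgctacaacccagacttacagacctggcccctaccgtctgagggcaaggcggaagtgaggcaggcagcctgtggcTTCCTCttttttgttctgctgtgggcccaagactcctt

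Other myeloid and leukocyte genes did not all follow the members. Beside the list medians below, that of all measured genes was -0.11, or 0.29 with spike-in scaling and -0.18 with normexp. Vav1, Rac2, F13a1, Stab1 and Chil3 each stand in more than 1 of these lists, so the lists are not independent. Of 15 pan-leukocyte genes outside the list, 14 were measured, 6 were past 2-fold upward, none downward, and the median was 0.55. With normexp 1 of the 14 was past 2-fold upward, against 4.88% of all measured genes, and the median was 0.23. Vav1, a guanine nucleotide exchange factor of blood cells, was at 1.53 ± 0.30 (0.30 with normexp), Cd48 at 1.42 ± 0.21 and Evi2a at 1.39 ± 0.20, while the bright Arhgdib was at -0.12 ± 0.20 (above 0 with spike-in scaling). Among monocyte genes 5 of 9 measured were at least 2-fold higher, with a median of 1.12 (4 and 0.57 with normexp). Plac8 was at 2.28 ± 0.21 and Itgam, the CD11b integrin chain, at 1.94 ± 0.22. Ccr2, the chemokine receptor of inflammatory monocytes, read 129 and 623 (1.84 ± 0.21). Its counterpart on patrolling monocytes and resident cells, Cx3cr1, was dim and read 37.2 and 25.8 (-0.96 ± 0.37). It was at -0.56 with spike-in scaling and -0.65 with normexp. F13a1 was at 1.36 ± 0.20 and Ly6c1, which endothelial cells also express, at -0.10 ± 0.20 (above 0 with spike-in scaling).

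Genes known from tissue-resident macrophages had 3 of 13 measured past 2-fold upward and 3 downward, with a median of 0.26. With spike-in scaling these were 5 upward and 2 downward with a median of 0.66, and with normexp 3 and 2 with -0.12. Fcna was at 1.82 ± 0.21. Siglec1, the sialoadhesin CD169, read 88.0 and 43.1 (-1.46 ± 0.25). The transcription factor gene Maf read 21277 and 5549, a difference of -2.37 ± 0.20, with its 4 probes between -3.05 and -2.37. Cbr2 at -0.89 ± 0.20 and Gas6 at -0.63 ± 0.20 are bright genes that other muscle cells may express. Which cells gave these signals cannot be told from whole muscle.

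The Fc receptor and ITAM signalling genes outside the list had 8 of 17 measured members past 2-fold upward and none downward (median 0.76). This depended on the background treatment, since with normexp 1 of 17 passed and the median was 0.25, while spike-in scaling gave 12 of 17. Lilrb4 was at 1.99 ± 0.33 (0.49 with normexp), Sirpb1a at 1.77 ± 0.24 (0.81 with normexp) and the inhibitory receptor gene Pirb at 1.60 ± 0.20. Fcgr4, the remaining activating IgG receptor, was at 0.66 ± 0.23, and Fcgrt, the neonatal Fc receptor of many cell types, at -0.47 ± 0.20. Further oxidase genes gave 2 of 6 past 2-fold (none with normexp, 3 with spike-in scaling). Among them was the small GTPase gene Rac2 (1.06 ± 0.21), which was also counted in the pan-leukocyte list. Hvcn1 was at 0.68 ± 0.23. The broadly expressed Rac1 was at -0.17 ± 0.20 (0.79 by its other probe, and above 0 with spike-in scaling). Cyb5r4, also broadly expressed, was at -0.47 ± 0.20.

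Toll-like receptors and adaptors outside the list had 5 of 13 past 2-fold upward and 2 downward (median 0.85). These were 9 and 2 with spike-in scaling (median 1.25), and 4 and 2 with normexp (median 0.45). Tlr6, which pairs with TLR2, was at 2.06 ± 0.23, and Tlr1, its other partner, was at least 3.01-fold brighter in the denervated pool. Tirap, an adaptor of TLR2 and TLR4, went the other way: it read 6643 and 1276, a difference of -2.81 ± 0.20, with -2.65 by its second probe. Tlr3 was at -1.97 ± 0.29 by one probe and -0.34 by the other, and Irak1 at 0.73 ± 0.20. The growth factors that act on Csf1r lay near 0, with Csf1 at 0.07 ± 0.20 and Il34 at -0.12 ± 0.20 (above 0 with spike-in scaling). In that list 2 of 12 measured genes were past 2-fold upward and 1 downward (median -0.02). With spike-in scaling they were 3 and none (median 0.38, against 0.29 for all measured genes). Those past 2-fold under 75th percentile scaling were Runx1 (6.02 ± 0.21, with 1.27 by its other probe, and a gene known from denervated fibres too), Cebpb (1.39 ± 0.20) and Irf8 (-1.09 ± 0.20, with -1.37 by its other probe and -0.69 with spike-in scaling), and Klf4 was at -0.83 ± 0.20.

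Markers of inflammatory activation were mostly dim. Of 12 inflammatory genes 7 were below background on both arrays, including Nos2, Il1b and Tnf, and none of the 3 measured passed 2-fold. These 3 were Il6 (0.39 ± 0.25) and Cd40 (0.11 ± 0.32), both below 0 with normexp, and Cd38 (-0.57 ± 0.21). Cd86 was at least 2.01-fold and Ptgs2 at least 3.04-fold brighter in the denervated pool. Genes of alternative activation had 2 of 9 past 2-fold upward and 1 downward (median 0.70), while spike-in scaling gave 5 upward, 0 downward (median 1.10). Chi3l1, dim in the control pool, read 17.2 and 290.1 (3.65 ± 0.32, or 1.60 with normexp). Clec10a, a galactose lectin, was at 1.17 ± 0.20 and Ccl17 at -1.03 ± 0.32 (-0.63 with spike-in scaling). Retnla was at -0.53 ± 0.20, Stab1 at 0.84 ± 0.20, and Pdcd1lg2 at least 2.95-fold brighter in the denervated pool. Lipid-handling and lysosomal genes of phagocytes had 5 of 20 past 2-fold upward and 1 downward (median 0.37), while spike-in scaling gave 8 upward, 0 downward (median 0.77). They were led by osteopontin Spp1 (2.95 ± 0.20), Ctsl (2.12 ± 0.20) and the phagocyte protease gene Ctss (1.75 ± 0.20), with Ctsd at 1.25 ± 0.20 and Lgals1 at 0.70 ± 0.20. Muscle fibres also express several of these.

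Markers of other blood cells gave mixed readings. Of 14 neutrophil genes 4 were measured and 5 were below background on both arrays, including Elane, Ngp and Camp. Of the 4, 2 passed 2-fold upward and none did with normexp. The S100 proteins S100a8 and S100a9 form calprotectin, which neutrophils and monocytes carry. By its only probe, S100a8 was not well above background in the control pool (18.4). It read 7488 in the denervated pool, at least 301-fold brighter. S100a9, also on 1 probe, read 133 and 462 (1.37 ± 0.21, or 0.95 with normexp). These partners thus differed by very unlike amounts, the S100a8 value rests on a single probe, and the cause of the gap was not tested. Lcn2 was at 2.52 ± 0.31 (0.88 with normexp) and Mmp9 at 0.37 ± 0.24 (-0.12 with normexp). The part of neutrophils in the members' differences was not tested.

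Dendritic cell genes had 1 of 6 measured past 2-fold (median 0.50), or 3 with spike-in scaling and none with normexp. That was Itgax, the CD11c chain, at 1.45 ± 0.26, whose other probe gave -0.50. Zbtb46 was at 0.92 ± 0.21 (-0.33 by its other probe), Xcr1 at -0.76 ± 0.22 and Cd83 at 0.38 ± 0.21, and Clec9a, Cd209a, Ccr7 and Siglech were below background on both arrays. Of 18 T, B and NK cell genes 9 were measured, none of them past 2-fold (median -0.39). With spike-in scaling their median was 0.01, against 0.29 for all measured genes. Klrb1c was at -0.71 ± 0.35, Cd3e at -0.55 ± 0.21 and Cd8b1 at 0.50 ± 0.20. Gzmb was at least 4.03-fold brighter in the denervated pool and Ms4a1 at least 2.03-fold brighter in the control pool. Mast cell genes had none of 7 past 2-fold upward and 2 downward (median -0.43). With spike-in scaling neither of these calls held (median -0.03, against 0.29 for all measured genes), nor with normexp. Kit was at -1.28 ± 0.26 (-0.88 with spike-in scaling), Fcer1a at -1.12 ± 0.21 (-0.72 with spike-in scaling) and Tpsb2 at -0.59 ± 0.25, with the proteases Mcpt4 at -0.43 ± 0.20 and Cma1 at -0.23 ± 0.20 (above 0 with spike-in scaling). Fcer1a, the ligand-binding chain that pairs with Fcer1g on mast cells, thus lay on the other side of 0 from Fcer1g.

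**Figure D5:**
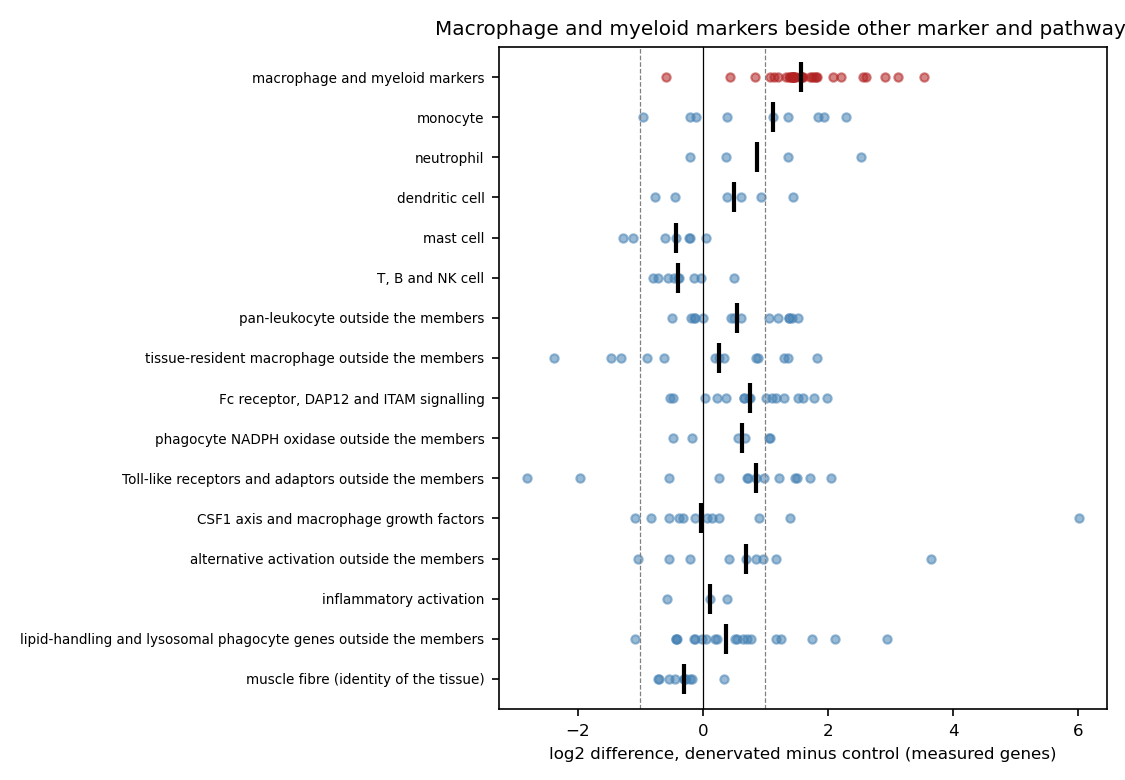
Log2 difference of each measured gene (points) and list median (black bar) for the macrophage and myeloid markers (red) and for other marker and pathway lists (blue), denervated minus control. Dashed lines mark 2-fold. The red points have a median of 1.56, and the mast cell, T, B and NK cell and muscle fibre lists have medians below 0 under 75th percentile scaling.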

How the data were processed

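Gene expression was measured on 2 Agilent 1-colour arrays, 1 for each pool of 6 mice. Per the file headers, the deposited spot intensity values were background-subtracted and detrended within each array by Agilent Feature Extraction 9.5.3.1 (9.5 in the submitters' processing notes), with no scaling between arrays. The software's flags for background, saturation and outliers were used as deposited. The authors also deposited a table of whole-number values, used here as a score in an alternative only. Set against the scanner values, it is the processed intensity scaled so that each array's 75th percentile is 100.

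Outlier spots were left out (87 and 81 of 43379), spots of a probe were averaged as log2 values, and each array's 75th percentile (788 and 1063) was subtracted. The preset multiplicative error of the software is 10%. Well above background were 70.9% (control) and 68.4% (denervated) of probes. A gene took its brightest measured probe. A probe above background on 1 array received a bound, measured against the lowest detected signal (14.5 and 17.9) or, where that is brighter, the signal of the dim probe itself. Names came from RefSeq accessions (23366 probes, assembly GRCm38.p6), otherwise from the file. Probe positions are those of the files (mm8).

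The members, the gene lists and the rule for named genes were chosen with earlier results of these data known. The rule takes all members and, from each further list, the 3 largest differences, the 2 brightest genes, bounds of 2-fold or more and 12 set genes. Genes given beyond that, such as dim markers, were chosen after their values were seen. A few genes picked by this rule are left out and not reported here. Cma1 and its older name Mcpt5 counted once. A list is described by its count and median, beside those of all genes. Scaling and 2-fold calls were tested on simulated data. Python 3.11.15, R 4.3.3 and limma 3.58.1 were used. Alternatives covered scaling, background correction (normexp, offset 50), the deposited table, dim and marked spots and the choice of probe.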

Additional observations from a re-analysis of the deposited data

How the results depend on the processing

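Of the 33 measured members, 29 had a value under all 12 alternatives. Of these 29, 22 were at least 2-fold higher under each, and 28 lay above 0 under each, the exception being Ncf1 (from -0.63 to 0.44). Clec7a, Cybb, Cd53 and Cd84 had no value under the stricter filter on dim probes. Members at least 2-fold higher numbered 26 of 33 with the probe of smallest difference (5.77% of all genes) and 27 of 33 with normexp (4.88%). They numbered 26 of 29 with the stricter filter (6.72%) and 32 of 37 with no filter (7.09%). Otherwise they were 30 or 31 of 33, against 6.48% to 15.4% of all genes. No member was 2-fold lower under any of the 12. The members' median log2 difference was 1.56 and became 1.96 with spike-in scaling, 1.996 without scaling and 1.26 with normexp. That of all measured genes was -0.11 and became 0.29, 0.32 and -0.18 in the same order. With spike-in scaling 14.4% of all genes were at least 2-fold higher and 67.8% lay above 0, since that scaling moves every difference up by 0.40. The added offset of normexp draws dim probes together by construction. No paired analysis was possible because each group has 1 array, and for the same reason no array could be left out. The number of arrays limits the precision, and Cd53 and Cd84, near the detection limit, have technical errors of 0.29 and 0.30.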
